A study of Rattus norvegicus with 12 samples.

Results

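Leptin is the hormone by which adipocytes report the size and the supply of the fat store, and the data describe its gene, Lep, and the gene of its receptor, Lepr, in the fat pad of fasting rats. The members were the probe sets whose platform gene symbol was Lep or Lepr. Lep had 1 probe set of its own (10854086, Entrez gene 25608), and it was 1 of 14506 genes named by a probe set of their own. Lepr (Entrez gene 24536) had none: its probe set, 10870289, is assigned by the platform to both Lepr and Leprot (Entrez gene 56766), so its signal belongs to neither gene alone and is called the shared Lepr/Leprot probe set here. The gene models of Lepr and Leprot overlap in RefSeq (assembly GRCr8, chromosome 5). Leprot encodes a small membrane protein that is known to hold leptin receptors away from the cell surface.

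Epididymal white adipose tissue, a visceral fat depot, came from 12 male rats of the Sprague-Dawley strain, and each rat's RNA was hybridised to its own Affymetrix Rat Gene 1.0 ST array. The 4 rats of the first group were fed, 4 were fasted until phase 2 of fasting and 4 until phase 3. The labels name no drug and no altered gene, and the sources used here do not give ages or the length of the fasts. In phase 2 the body is known to live mainly on fat and to spare protein, and in phase 3 protein breakdown rises. Values are log2 expression levels made by the authors with RMA, so a difference of 1 is a doubling of signal, and arrays had medians between 6.026 and 6.1319 over all probe sets. Where nothing more is said, p-values come from limma over all 12 arrays with Benjamini-Hochberg adjustment over 14507 features, namely the 14506 genes and the shared probe set, with a call at an adjusted p below 0.05. Such p-values and their standard errors reflect the spread from rat to rat, pooled over the 3 groups. A phase 2 difference from fed therefore also carries the spread among phase 3 rats.

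One label, on RNA extraction, mentions liver tissue, whereas every title and tissue label names fat. The mean log2 level of 16 adipocyte markers lay between 9.899 and 11.641 on the 12 arrays and that of 12 hepatocyte markers between 4.65 and 4.985. Among the latter Alb, which encodes albumin, stood higher, at 7.71 to 8.86 in fed, 8.27 to 10.78 in phase 2 and 5.20 to 8.34 in phase 3 rats. Hpx, the haemopexin gene, lay between 4.96 and 5.55 in fed rats and reached 9.01 in phase 3 rat 3. The source of these signals was not tested. Olfactory receptor genes, which are taken as mostly silent in fat, had a median level of 3.49 over 53 genes.

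Leptin is made almost only by adipocytes. It circulates to the hypothalamus, where the long form of the receptor activates the kinase JAK2 and the transcription factor STAT3, and its fall in fasting is the classical signal of starvation to the brain. SOCS3 and the phosphatases PTP1B and TCPTP damp the receptor's signal. Transcription of Lep in adipocytes is known to depend on C/EBP factors, above all C/EBP-alpha.

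The proximal promoter of Lep shows where such factors could act and is printed for that reason. The sequence holds the 250 bases before the RefSeq start of transcription, chr4:58626288-58626537 of GRCr8, plus strand, and the capitals mark the matches to the motifs searched.
Lep promoter: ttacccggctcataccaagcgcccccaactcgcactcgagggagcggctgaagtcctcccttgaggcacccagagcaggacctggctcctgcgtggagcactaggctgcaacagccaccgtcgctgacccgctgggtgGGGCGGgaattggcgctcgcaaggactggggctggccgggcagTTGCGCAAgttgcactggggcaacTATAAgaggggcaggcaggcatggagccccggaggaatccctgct
From left to right the capitals are a GC box, GGGCGG, a palindromic C/EBP motif, TTGCGCAA, and a TATA motif, TATAA. Both strands were searched, the matches do not overlap, and the motifs were chosen with this sequence in view. The C/EBP match spans the bases 69 to 62 before the start, the GC box 112 to 107 and the TATA motif 45 to 41. Of 33469 RefSeq promoters of the same length, 0.14% held TTGCGCAA, 30.5% GGGCGG and 24% TATAA. A match describes the letters, and binding was not measured.

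Lep fell at each stage of the fast. The 4 fed rats had log2 levels of 11.48, 11.30, 11.07 and 11.11. In phase 2 the rats stood at 7.28, 6.68, 6.39 and 8.16. Phase 3 rats had 4.28, 4.78, 5.33 and 4.98. All fed rats were above all phase 2 rats, which were all above the phase 3 rats, and the narrowest gap, between phase 3 rat 3 and phase 2 rat 3, was 1.06.

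**Figure D1:**
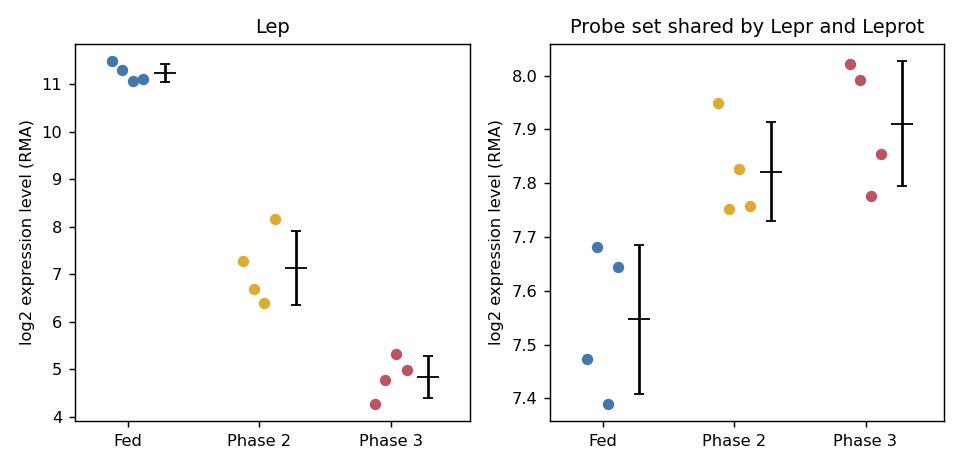
Log2 expression levels (vertical axes) of Lep, left, and of the probe set shared by Lepr and Leprot, right, in 4 rats per group (points), with mean and SD (bars). The axes differ: Lep spans 4.28 to 11.48 with 3 separate groups, and the shared probe set spans 7.39 to 8.02 with fed rats lowest.

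From fed to phase 2 the mean of Lep went from 11.2 ± 0.19 to 7.13 ± 0.781 (SD, n = 4). It fell by 4.12 ± 0.308 (SE) on the log2 scale (95% interval -4.78 to -3.46, adjusted p = 6.84e-07 in limma), which was 17.3-fold. Of all features 25.2% were called in this comparison, and Lep had the fifth largest fall among the 2248 lower ones. Values that do not overlap between these groups were found for 31% of features.

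Phase 3 rats had a mean Lep level of 4.84 ± 0.441 (SD, n = 4). Detection calls were not used, and 10 of the 53 olfactory receptor genes had a phase 3 mean at or above that of Lep, with a 95th percentile of 5.76 over these genes. Lep in phase 3 therefore cannot be separated from background here, and each difference from phase 3 is that of the measured signal, a lower limit for the transcript where the signal is background. In fed and phase 2 rats 0 of these genes reached Lep. Against fed rats the measured signal fell by 6.40 ± 0.308 (95% interval -7.06 to -5.74, adjusted p = 1.57e-09 in limma). The comparison called 45.4% of all features, 24.3% as lower, and separated the groups' values for 41.9%.

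Between the fasting stages the measured signal of Lep fell by 2.28 ± 0.308 (95% interval -2.94 to -1.62, adjusted p = 8.18e-05 in limma). Here 27.9% of features were called, 15.1% as lower, and 26.3% had values that do not overlap. The measured second step was smaller than the first by 1.83 ± 0.533 (adjusted p = 0.0374 in limma, where 12.6% of features were called in the same test of steps). Since background sets how far the signal can fall in the second step, this does not show that the transcript fell less in it. The call ended in 12 of 21 alternatives, at adjusted p between 0.0505 and 0.139, among them when any 1 fed rat, phase 2 rat 1, 2 or 3, or phase 3 rat 3 or 4 was left out. Over all 21 alternatives the adjusted p lay between 0.00286 and 0.139.

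Rats of the same group differed most in phase 2. The SD of Lep in phase 2, 0.781, was exceeded by 0.117% of features, the SD among fed rats, 0.19, by 16.3%, and the SD in phase 3, 0.441, by 3.93%. Phase 2 rat 4, at 8.16, and phase 2 rat 3, at 6.39, were the extremes. The spread could not be set against body weight or blood leptin, which were not used here.

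The fall of Lep was set against other genes of the adipocyte, since fewer cells of a type and less RNA per cell cannot be told apart in a whole fat pad. In phase 2 the markers were called about as often as all features. Of 16 adipocyte markers 3 rose and 1 fell, or 25% beside 25.2% of all features, with a median difference of 0.06, beside 0.01 over all features. Adipoq, which encodes adiponectin, differed by -0.06 ± 0.169 (adjusted p = 0.853 in limma), and its rats lay between 13.13 and 13.18 when fed and between 13.03 and 13.17 in phase 2. Plin1, the main coat protein of the adipocyte's lipid droplet, differed by -0.13 ± 0.312 (adjusted p = 0.822), although the values of its groups did not overlap, at 11.64 to 11.70 fed and 11.54 to 11.59 in phase 2. The marker with the lowest difference was Slc2a4, the insulin-dependent glucose transporter, at -1.88, and 0 of 16 were as low as Lep.

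In phase 3, 14 of the 16 markers fell and 1 rose, where 24.3% of all features were called lower and 21.1% higher, with a median of -1.46 beside 0.05 over all features. Adipoq fell by 1.52 ± 0.169 and Plin1 by 1.65 ± 0.312 (adjusted p of 4.58e-06 and 0.00055 in limma). The lowest was Aqp7, the glycerol channel, at -3.31, and again 0 of 16 markers were as low as Lep. From phase 2 to phase 3 the median marker was at -1.49, and 3 of 16 were as low as Lep or lower, led by Acvr1c, an activin-type receptor, at -2.99.

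**Figure D2:**
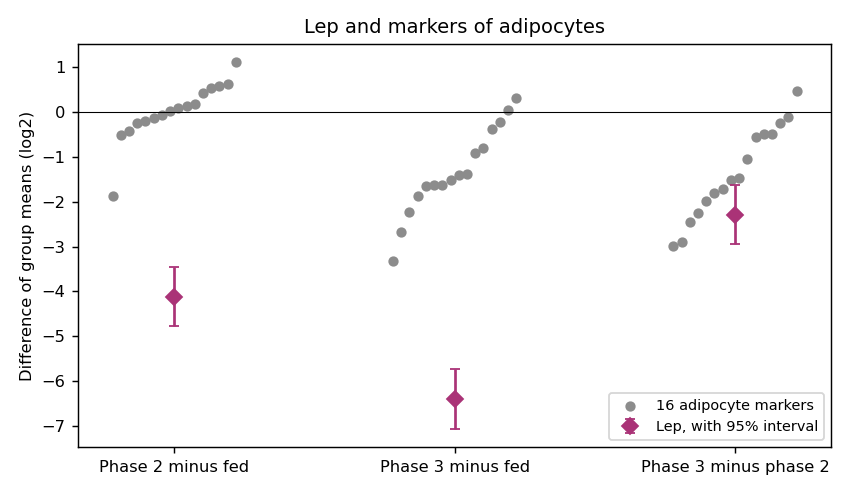
Difference of group means (log2, vertical axis) of Lep with its 95% interval (diamond) and of 16 adipocyte markers (grey points, ordered by value within each comparison) in the 3 comparisons. Lep lies below every marker against fed rats, at -4.12 and -6.40, and among them in phase 3 against phase 2, at -2.28.

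Lep was then taken relative to the median of the 16 markers on each array. Relative to the fed mean, this measure was -3.85, -4.48, -4.73 and -3.06 in phase 2 rats 1 to 4. In phase 3 rats 1 to 4 it was -6.17, -4.64, -4.43 and -4.04. The phase 2 and phase 3 rats overlap on it, while both lie far from the fed rats, at -0.22 to 0.32.

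The relative fall was -4.03 from fed to phase 2 and -4.82 from fed to phase 3, each with an exact two-sided permutation p of 0.0286, the smallest that 4 against 4 rats can give, and 0.0343 adjusted over 6 such tests. From phase 2 to phase 3 it was -0.79 (exact permutation p = 0.286, adjusted 0.286), so no further fall relative to the markers was detectable with 4 rats a group. Background limits this value too: the markers fell from phase 2 to phase 3, while a signal at background cannot fall with them. Phase 3 rat 1 had the lowest Lep of all, 4.28, and the highest Plin1 (11.18) and Adipoq (12.25) of the phase 3 rats. Without that rat the second relative step was -0.34.

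The shared Lepr/Leprot probe set moved little and the other way. Its fed rats had log2 levels of 7.47, 7.68, 7.39 and 7.64. Phase 2 rats had 7.95, 7.75, 7.83 and 7.76. The phase 3 rats had 8.02, 7.99, 7.78 and 7.85. Every fasted rat was above every fed rat, and the fasted groups overlapped. Such separation from fed rats was common, with 31% of all features in phase 2 and 41.9% in phase 3.

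In phase 2 the shared probe set was higher by 0.27 ± 0.09 (95% interval 0.08 to 0.47, adjusted p = 0.0383 in limma), from 7.55 ± 0.138 to 7.82 ± 0.092 (SD, n = 4). Of all features 9.66% were called higher in this comparison, and 12.1% were at least as far above fed rats. The call was near the threshold, and without single rats the difference stayed between 0.22 and 0.32. The call ended without fed rat 1 or 3 or any 1 of the phase 2 rats, at adjusted p between 0.0503 and 0.125, and at 0.0524 when all probe sets were tested. Over all alternatives the adjusted p lay between 0.00832 and 0.125.

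In phase 3 it was higher than in fed rats by 0.36 ± 0.09 (95% interval 0.17 to 0.56, adjusted p = 0.00417 in limma), which was 1.29-fold. Such a rise was common, since 15.4% of all features were at least as far above fed rats. Phase 3 differed from phase 2 by 0.09 (95% interval -0.10 to 0.28, adjusted p = 0.509), and the second step differed from the first by -0.18 ± 0.156 (adjusted p = 0.538).

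Lepr is known from endothelial and some stromal cells as well as from the brain, so the probe set was placed beside the markers of those cells. Markers of fibroblasts and progenitors moved away from it, with a mean log2 level over 14 markers of 11.07 to 11.22 in fed, 10.41 to 10.74 in phase 2 and 9.16 to 9.69 in phase 3 rats. Relative to the median of these markers the shared probe set was higher by 1.04 in phase 2 and 2.22 in phase 3 than in fed rats, and by 1.18 in phase 3 against phase 2 (each exact permutation p = 0.0286, adjusted 0.0343). The probe set's own part of these differences was 0.27, 0.36 and 0.09. Of the 14 markers 6 fell and 1 rose in phase 2, where 15.5% of all features were called lower and 9.66% higher, and 12 fell and 2 rose in phase 3, where the shares were 24.3% and 21.1%. Of 9 markers of smooth muscle and pericytes 7 rose and 1 fell in each fasting group, with medians of 0.79 and 1.03, and their mean level was 8.75 to 9.26 in fed, 9.48 to 10.3 in phase 2 and 9.29 to 9.89 in phase 3 rats. Of 12 endothelial markers 9 rose in phase 2 and 7 in phase 3, with 0 falls, against the same 9.66% and 21.1%. Their median differences were 0.44 and 0.33, beside 0.27 and 0.36 for the shared probe set, which was not tested relative to them. The mean level of the endothelial markers was 9.03 to 9.17 in fed, 9.34 to 9.62 in phase 2 and 9.41 to 9.57 in phase 3 rats. The part of these markers' cells in the result was not tested.

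Leprotl1, the close relative of Leprot, has a probe set of its own and is named here outside the rule for named genes. Its level fell from 9.25 ± 0.043 in fed to 8.68 ± 0.153 in phase 3 rats (SD, n = 4), by 0.57 ± 0.0874 (adjusted p = 9.58e-05 in limma). In phase 2 it was at -0.24 ± 0.0874 (adjusted p = 0.0601), which did not pass. It passed without the dimmest 40% of genes, with only the 2 groups compared, with array weights and without phase 3 rat 3. Over all alternatives the adjusted p lay between 0.0227 and 0.179.

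The other genes of leptin signalling and of leptin control, downstream of the receptor and upstream of the hormone, were described from lists written for this purpose. Against the counts that follow, 9.66% of all features were called higher and 15.5% lower in phase 2 against fed, and 21.1% and 24.3% in phase 3 against fed. In phase 3 against phase 2 the shares were 12.8% and 15.1%. With arrays centred on their medians, which moved the median of all features by 0.155 in phase 3 against fed, the share of higher ones among the calls went from 38.4% to 53% in phase 2, from 46.5% to 69.6% in phase 3, and from 45.8% to 64.9% between the fasting groups. Of 17 measured genes that carry the receptor's signal, 2 rose and 4 fell in phase 2, with a median of -0.09. In phase 3, 4 rose and 6 fell, with a median of 0.06 beside 0.05 over all features. Centring turned that count to 8 and 5, so the list had no settled direction.

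Jak2, the kinase bound to the receptor, and Stat3, the factor it activates, were called in phase 3. Jak2 had fed levels of 8.94, 8.96, 8.76 and 8.81 and phase 2 levels of 8.92, 8.91, 8.93 and 8.85, which overlap. Its phase 3 rats stood at 9.36, 9.22, 9.57 and 9.60, above all others, and it was higher than in fed rats by 0.57 ± 0.0912 and than in phase 2 by 0.54 (adjusted p of 0.000132 and 0.00053 in limma). Stat3 rose by 0.57 ± 0.109 in phase 3 (adjusted p = 0.00063), from 9.57 to 9.98 over the fed rats to 10.04 to 10.41, and it stood 0.51 above phase 2 (adjusted p = 0.00284). In phase 2 Jak2 was at 0.03 (adjusted p = 0.849) and Stat3 at 0.06 (adjusted p = 0.776).

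Other members of the signalling list went in both directions. Akt2, the main AKT kinase of insulin-responsive cells, fell by 0.58 in phase 2 and by 1.58 in phase 3. Stat5a, another factor that leptin can activate, fell by 0.41 and 0.88. Prkaa1, a catalytic subunit of the energy sensor AMPK, rose by 0.94 and 1.17. Pde3b, the phosphodiesterase through which insulin restrains lipolysis, rose by 1.35 in phase 2, and its phase 3 level did not differ from fed beyond the spread of the rats, at 0.05 ± 0.19 (adjusted p = 0.853). That value turned to -0.20 without phase 3 rat 1.

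Among 14 measured genes that restrain the receptor or move it within the cell, 2 rose and 2 fell in phase 2, and 7 rose and 4 fell in phase 3, with medians of 0.03 and 0.16. With centred arrays, quantile normalisation or cyclic loess the phase 2 count was 4 and 1. Ptpn2, which encodes TCPTP, was at 0.05 in phase 2 and rose by 0.96 ± 0.0996 in phase 3 (adjusted p = 2.21e-06 in limma), from 7.80 to 7.92 over the fed rats to 8.52 to 9.02 over the phase 3 rats. Socs3 was higher in phase 3 by 0.62 ± 0.208 (adjusted p = 0.0239, between 0.000117 and 0.0763 over the alternatives), but phase 3 rat 1, at 6.18, lay among the fed rats at 6.15 to 6.51. Leaving out fed rat 1 or 3, or phase 3 rat 2, 3 or 4, took the call away. In phase 2 Socs3 was at 0.09 ± 0.208 (adjusted p = 0.821).

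Ptpn1, which encodes PTP1B, was lower in phase 2 by 0.44 ± 0.15 (adjusted p = 0.0439). With the alternatives this p ran from 0.02 to 0.137, and 14 of them gave no call, among them those without fed rat 1, 2 or 3, without any 1 of the phase 2 rats, and without phase 3 rat 1 or 4. In phase 3 it was at 0.03 ± 0.15 (adjusted p = 0.88). Ptpre, a receptor-type phosphatase that acts on the leptin receptor, fell by 0.49 and 1.01. Grb10, an adaptor that restrains insulin receptor signalling, rose by 0.43 and 0.49, and Bbs2, a subunit of the ciliary BBSome that carries membrane receptors, by 0.51 and 0.66. Socs2, a relative of Socs3, rose by 0.53 in phase 3, and Adam17, a protease that sheds receptors from the surface, fell by 0.57.

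Targets of STAT3 and related early genes include inflammatory and survival genes. In phase 2, 2 of 17 rose and 2 fell, with a median of 0.08. In phase 3, 8 rose and 3 fell, with a median of 0.46 beside 0.05 over all features. Against phase 2, 8 rose and 2 fell in phase 3, with a median of 0.54 beside 0.03 over all features, of which 12.8% were called higher and 15.1% lower. In phase 3 against fed rats Cebpd, a C/EBP factor induced in the acute-phase response, rose by 1.504 ± 0.111 (adjusted p = 7.96e-08 in limma). In the same comparison Pim1, a survival kinase, rose by 1.15 ± 0.171 and Junb, an AP-1 subunit, by 1.15 ± 0.22. Mcl1, which opposes cell death, rose there by 0.79. The largest change went the other way: Ccnd1, cyclin D1, fell by 1.12 in phase 2 and fell by 2.74 in phase 3.

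**Figure D3:**
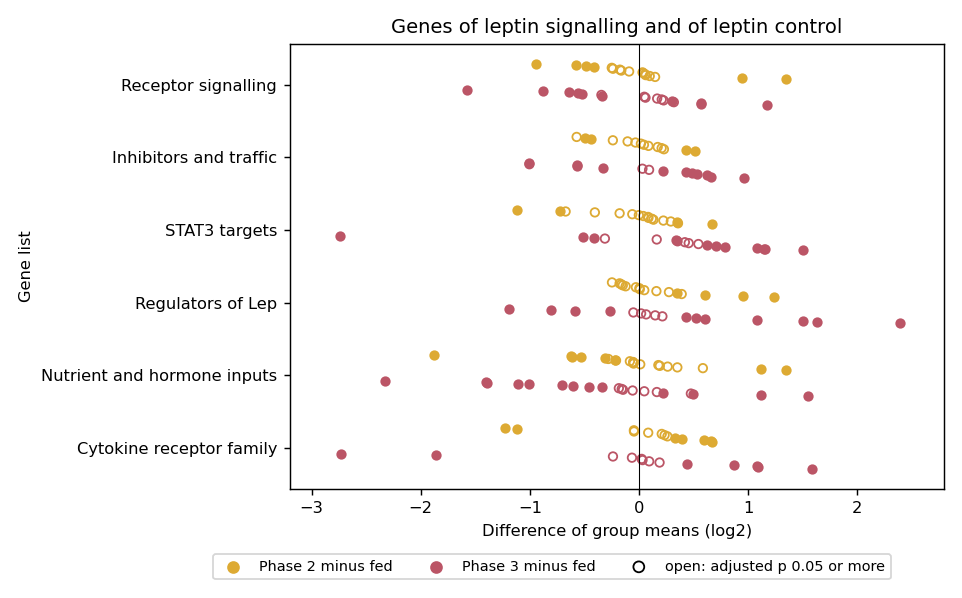
Difference of group means from fed rats (log2, horizontal axis) for the measured members of 6 gene lists (rows), in phase 2 (yellow) and phase 3 (red). Filled points passed limma's test and open points did not, and the vertical order within a row only separates points. The list of STAT3 targets has a median of 0.08 in phase 2 and 0.46 in phase 3.

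Transcription factors known to act on Lep or on fat genes like it were taken next. Of 16 measured regulators 4 rose and 0 fell in phase 2, and 7 rose and 4 fell in phase 3, or 10 and 3 with centred arrays. Cebpa, which encodes C/EBP-alpha, had fed levels of 9.11, 9.25, 9.30 and 9.37 and phase 2 levels of 9.32, 9.14, 9.20 and 9.26. These overlap, with a difference of -0.03 ± 0.15 (adjusted p = 0.927, whose sign turns under the other scalings). Its phase 3 rats stood at 8.58, 7.65, 7.90 and 8.12, and it fell by 1.19 ± 0.15 against fed rats (adjusted p = 1.44e-05 in limma).

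The other C/EBP factors went up. Cebpd stood between 7.09 and 7.27 in fed and between 8.37 and 8.87 in phase 3 rats, with the rise given above. Its phase 2 rise of 0.35 ± 0.111 (adjusted p = 0.0313, between 0.00816 and 0.103 over the alternatives) was lost on leaving out fed rat 1, 3 or 4, or phase 2 rat 2 or 4. Cebpb, named outside the rule beside its relatives, rose by 0.60 ± 0.151 in phase 3 (adjusted p = 0.00452), and in phase 2 it was at 0.16 ± 0.151 (adjusted p = 0.507).

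**Figure D4:**
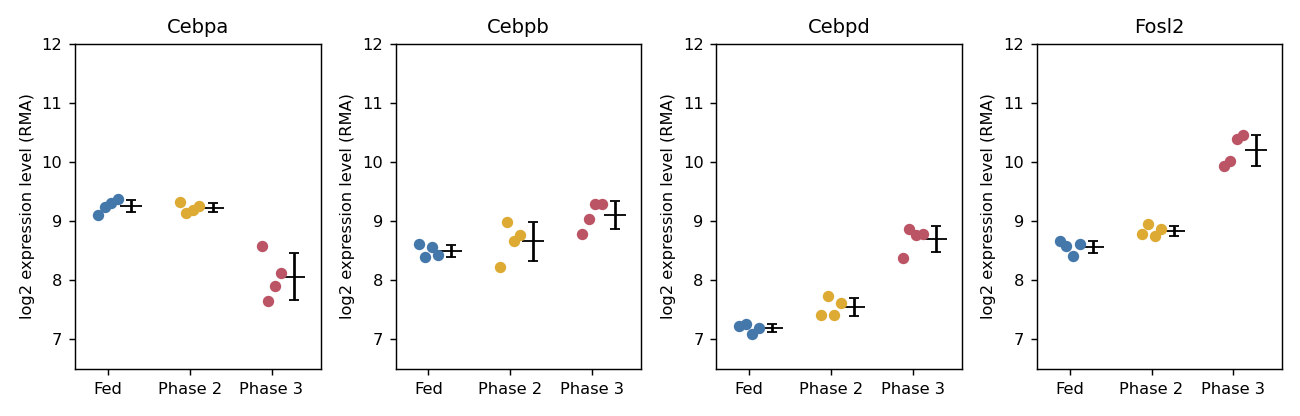
Log2 expression levels (vertical axes, same range) of Cebpa, Cebpb, Cebpd and Fosl2 in 4 rats per group (points), with mean and SD (bars). Fed and phase 2 rats overlap for Cebpa, which falls by 1.19 in phase 3, and Fosl2 and Cebpd stand highest in phase 3.

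Fosl2, an AP-1 factor known to act on the leptin gene, rose by 1.64 ± 0.115 in phase 3 (adjusted p = 4.95e-08 in limma), from 8.41 to 8.66 over the fed rats to 9.94 to 10.46. Pparg, the master factor of adipocytes, fell by 0.80 ± 0.121 in phase 3 (adjusted p = 7.48e-05) and was at -0.25 ± 0.121 in phase 2 (adjusted p = 0.164). The phase 2 value was called with only the 2 groups compared and without phase 3 rat 1 (adjusted p between 0.0294 and 0.338 over the alternatives). Klf15, a factor induced by glucocorticoids and fasting, rose by 1.24 and 2.39. Foxo1, which insulin holds out of the nucleus, rose by 0.60 and 1.08. Nr1h3, the oxysterol receptor LXR-alpha, rose by 0.95 in phase 2. Nr3c1, the glucocorticoid receptor, fell by 0.58 in phase 3.

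Among 20 measured genes of the hormone and nutrient inputs to leptin, 2 rose and 6 fell in phase 2, and 4 rose and 9 fell in phase 3. With quantile normalisation the phase 2 count was 4 and 4. Slc2a4 fell by 1.88 ± 0.155 in phase 2 (adjusted p = 1.66e-06 in limma) and was at -1.40 in phase 3. Gfpt1, the first enzyme of the hexosamine pathway, fell by 0.61 and 0.70. Insr, the insulin receptor gene, rose by 1.12 and 1.55, and each phase 2 rat, the lowest at 10.7, was above each fed rat, the highest at 10.

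On the catecholamine side, Adrb3, the beta-3 adrenergic receptor whose stimulation is known to lower leptin, was at 0.59 ± 0.27 in phase 2 (adjusted p = 0.138) and fell by 1.39 ± 0.27 in phase 3 (adjusted p = 0.000694 in limma). Phase 3 was below phase 2 by a log2 difference of -1.98 (adjusted p = 9.15e-05). The phase 2 rise of Adrb3 was called with only the 2 groups compared and without phase 3 rat 3. Over the alternatives its adjusted p lay between 0.0234 and 0.333. Prkar2b, the regulatory subunit of protein kinase A in fat, fell by 2.32 in phase 3 and Gnai1, an inhibitory G protein subunit, by 1.11.

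Relatives of the leptin receptor in the cytokine receptor family were measured by probe sets of their own. Of 13, 5 rose and 2 fell in phase 2, and 5 rose and 2 fell in phase 3. Ghr, the growth hormone receptor, fell by 1.12 ± 0.148 in phase 2 and fell by 2.73 ± 0.148 in phase 3. Prlr, the prolactin receptor, was called lower in both, from a fed mean of 6.29, but its means of 5.06 and 4.42 lay below the 95th percentiles of the olfactory receptor genes, 5.66 and 5.76, so the sizes are not given. The 5 of the 13 relatives called higher in phase 3, where 21.1% of all features were, all signal with or as gp130. Il6st, which encodes gp130 itself, rose by 1.095 ± 0.109, the oncostatin M receptor Osmr by 1.08 and Lifr, the receptor of leukaemia inhibitory factor, by 0.87. Cntfr, the ciliary neurotrophic factor receptor, rose by 1.59 and Il11ra1, an interleukin-11 receptor, by 0.44. The adjusted p of these 5 in phase 3 lay between 1.65e-06 and 0.00369 in limma. The interleukin-6 receptor gene Il6r, at 0.09 (adjusted p = 0.492), and Il27ra, at 0.19 (adjusted p = 0.0941), were not called, and they and Il11ra1 are named outside the rule. Il27ra was called with centred arrays (0.34, adjusted p = 0.00519) and without fed rat 4 (0.28, adjusted p = 0.011), and over the alternatives its adjusted p ran from 0.00519 to 0.266. Epor, the erythropoietin receptor, rose by 0.33 in phase 2.

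The genes with profiles nearest to that of Lep were found by the root mean square difference over the 12 arrays, after each gene's values were centred on its own fed mean. They were Fasn, the fatty acid synthase (0.743), the imprinted gene Mest (0.778), Pnpla3, which encodes a lipid droplet protein of the patatin family (1.02), Oxtr, which encodes the receptor of oxytocin (1.04), and Nnat, also imprinted (1.16), in log2 units. All were far lower in both fasting groups, which follows from choosing them by nearness to Lep on these same arrays. No feature lay within 0.2 of Lep, but the SD of Lep's own rats was 0.781 in phase 2 and 0.441 in phase 3. A gene could hardly come that near without sharing this spread, so the cut says little for Lep.

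From phase 2 to phase 3 Mest fell by a further 2.05 ± 0.215, Nnat by 3.58 ± 0.275 and Fasn by 0.95 ± 0.162 (adjusted p of 9.68e-06, 7.91e-07 and 0.00056 in limma). The same values chose these genes, so such p-values and any likeness to Lep in single rats are no independent support for a shared course. Pnpla3 was at -0.11 ± 0.0865 (adjusted p = 0.376, 95% interval -0.30 to 0.07) and Oxtr at 0.06 ± 0.114 (adjusted p = 0.752, 95% interval -0.19 to 0.30), with overlapping groups. The phase 2 mean of Oxtr, 5.47, was below the olfactory 95th percentile of 5.66, and that of Pnpla3, 6.17, was above it. In phase 3 the means of Mest, 5.77, and Nnat, 5.93, were near the percentile of 5.76. Whether background limited a further fall of Oxtr or Pnpla3 was not tested. The phase 2 rat with the highest Lep, rat 4, also had the highest Mest (8.48) and Nnat (10.29) of its group, whereas Fasn was highest in rat 1 (8.78).

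**Figure D5:**
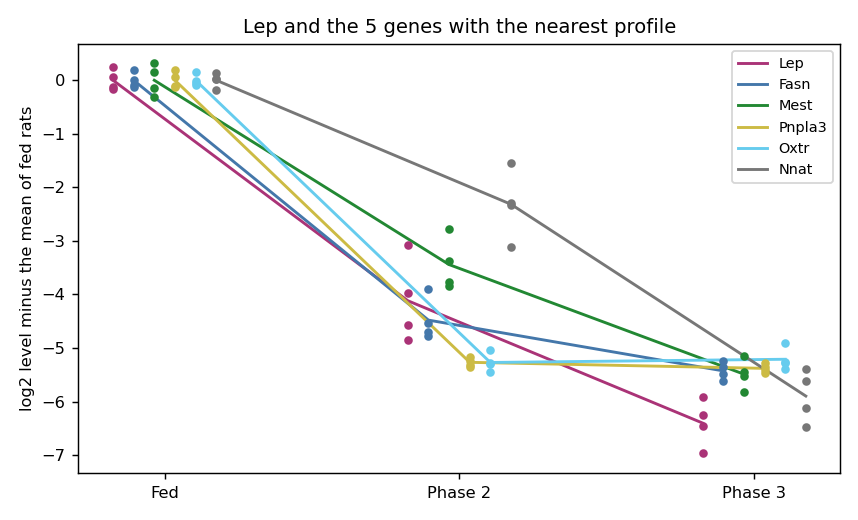
Log2 level minus the gene's mean in fed rats (vertical axis) for Lep and the 5 genes nearest to it, with group means joined by lines and 4 rats per group as points, shifted sideways per gene. Lep ends lowest, at -6.40, and from phase 2 to phase 3 Pnpla3 and Oxtr differ by -0.11 and 0.06.

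For the shared Lepr/Leprot probe set the nearest were Pum2 (0.0718), an RNA-binding protein, Pdpk1 (0.0791), the kinase that activates AKT, Terc (0.082), the telomerase RNA, Irf2bpl (0.0876) and Lrrc2 (0.0883). Terc and Lrrc2 had means below the olfactory 95th percentile in all 3 groups. A profile this shallow was common: 1360 features, 9.38% of the others, lay within 0.2 of it.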

How the data were processed

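Each of 12 arrays measured 1 rat. The deposited values, 1 log2 level for each probe set, come from RMA, GCOS and Affymetrix Expression Console 1.1, per the submitters' processing notes. The sources used here do not state RMA's settings, and detection calls and scan dates were not used. RMA makes the arrays alike in distribution, so a shift shared by most genes cannot be seen. Of 29215 probe sets 15310 name 1 gene, 323 several and 13582 none. The brightest probe set by mean over the arrays stood for a gene, and the 1 shared by Lepr and Leprot was added.

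Linear models in limma 3.58.1 (R 4.3.3; lmFit, then eBayes) gave the differences, with a mean for each of the 3 groups and no covariates, and the procedure was tested on simulated data. Exact permutation tests, the promoter search (RefSeq, GRCr8) and the plots used Python 3.11.15. The members and lists were chosen with earlier results of these data known. Named genes are Lep, the shared probe set, the 5 nearest to each, up to 5 called members per list by adjusted p, and Jak2, Stat3, Socs3, Ptpn1, Cebpa, Pparg, Insr, Adrb3, Adipoq and Plin1. The adjusted p rule was applied in each comparison. Pik3cb, Ptpn11, Bbs1, Il4r, Prkaca and Slc2a1 also met it but were taken out by hand and not described. In phase 3 against fed they were at -0.64, 0.21, 0.43, -0.415, -1.00 and 1.12. Pdk1 (pyruvate dehydrogenase kinase) had been entered in the signalling list in error and was left out after the data were seen. With it 2 genes rose and 5 fell in phase 2, and 4 and 7 in phase 3.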

Additional observations from a re-analysis of the deposited data

Results flagged for a closer look

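Among 58 members and named genes in 3 groups of 4 rats, 9 values stood apart from the other 3 rats of their group by more than Dixon's 95% critical value, which chance does for about 1 in 20 groups. Neither Lep nor the shared Lepr/Leprot probe set was among them. Phase 3 rat 1 was high for Pde3b (10.9, the next rat at 10.002) and Nr1h3 (10.5, the next at 9.80). Phase 2 rat 2 was low for Stat3 (9.60) and Ptpn1 (7.44), and phase 2 rat 1 was low for Pde3b (11.3). Phase 3 rat 2 was high for Ccnd1 (6.95) and phase 3 rat 3 low for Irf2bpl (7.82). Fed rat 2 was high for Pum2 (9.90) and fed rat 4 low for Plin1 (11.6).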

How the results depend on the processing

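The 3 comparisons of Lep and the phase 3 comparisons of the shared probe set kept their direction and their side of the threshold under all 22 alternatives, with Lep between -4.46 and -3.87, -6.56 and -6.21, and -2.53 and -1.94. The 6 values relative to markers also did so, but under 11 alternatives for Lep and 10 for the shared probe set. Most of these left out single rats. Where the groups are fully separate, leaving out a rat cannot raise the permutation p, so those runs could not remove a call. Without single rats, the step difference of Lep lay between 1.34 and 2.52 and the shared probe set in phase 2 between 0.22 and 0.32. The step difference stayed at 1.83 but did not pass with an intensity trend and robust prior (adjusted p = 0.0638), with all probe sets (0.0671) or with a replicate block (1.83, adjusted p = 0.0505). The shared probe set in phase 2 stayed at 0.27 but did not pass with all probe sets (0.0524). Testing all probe sets called 10322 features in phase 3 against fed in place of 6590, since more were tested. The causes of the other changes were not tested. Replicate numbers shared between groups did not pair the rats (correlations of deviations from -0.155 to 0.188 over 12 pairs), and the block changed no other call of the members.

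Among named genes 2934 of the recomputed values kept their call, 107 lost it, 15 gained one and 17 changed sign, none of them called. The sign turned for Cebpa in phase 2 with centred arrays (0.037), quantile normalisation (0.04), cyclic loess (0.024) and without fed rat 4 or phase 2 rat 2 (-0.076 to 0.009 without single rats), and for Adipoq in phase 2 with centred arrays (0.005). With array weights it turned for Oxtr in phase 3 against phase 2 (-0.045) and Pde3b in phase 3 against fed (-0.045). Without single rats, Oxtr between the fasting groups lay between -0.045 and 0.135, Pde3b in phase 3 between -0.204 and 0.149, Ptpn1 in phase 3 between -0.075 and 0.175, Jak2 in phase 2 between -0.003 and 0.064, and Socs3 in phase 2 between -0.014 and 0.152. The signal over background was unknown, which limits low levels such as that of Lep in phase 3.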
